A study of Rattus norvegicus with 8 samples.

Results

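The genes of de novo lipogenesis, the pathway that turns citrate and acetate into saturated and monounsaturated fatty acids, were followed in rat liver together with 3 of their regulators. The members were every non-control probe whose gene name on the array was Acly, Acss2, Acaca, Acacb, Fasn, Elovl6, Scd1, Srebf1, Mlxipl or Thrsp. These names gave 10 genes and 21 probes, of 25512 gene names and 46883 probes on the array. The rule uses gene names and no measured value, but the list of names was drawn up with earlier results of these data known. The samples were liver RNA of male Sprague Dawley rats, an outbred laboratory strain, with a labelled weight of 180 to 200 g. For 12 weeks the high-fat group (4 samples) received a diet labelled as 60% high fat, and the control group (4 samples) a normal diet. The labels give neither the age of the rats, nor the hour or feeding state at which the livers were taken, nor whether each sample is a separate animal. P-values therefore measure the spread between these samples, which may in part be technical.

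Acly cleaves cytosolic citrate and Acss2 activates acetate, both to acetyl-CoA. Acaca and Acacb carboxylate acetyl-CoA to malonyl-CoA, Fasn builds palmitate from it, Elovl6 lengthens palmitate and Scd1 inserts the first double bond. In liver the transcription factors SREBP-1c, a product of Srebf1, and ChREBP, the product of Mlxipl, switch these enzymes on after carbohydrate feeding, and Thrsp encodes a nuclear and cytosolic protein that rises with them. Dietary fat, above all polyunsaturated fat, is known to lower the pathway, and so is fasting.

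The probes on which the reading of the carboxylases depended are shown here as the array design gives them, from 5′ to 3′. The GT-named probes of Acaca and Acacb cover the same stretch of the 2 related enzymes. Over the 44 bases they share, 31 were identical (70.5%) and 13 differed, and capitals mark the identical bases.
Acaca GT_Rn_GE_00186351: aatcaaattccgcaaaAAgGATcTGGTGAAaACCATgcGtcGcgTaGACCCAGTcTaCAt
Acacb GT_Rn_GE_00213520: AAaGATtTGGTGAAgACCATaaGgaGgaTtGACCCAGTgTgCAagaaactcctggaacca
Each carboxylase had 1 further probe, and the longest run of bases that either shared with a probe of the other gene was 6.
Acaca A_64_P231828: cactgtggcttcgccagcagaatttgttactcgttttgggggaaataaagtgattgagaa
Acacb A_42_P796452: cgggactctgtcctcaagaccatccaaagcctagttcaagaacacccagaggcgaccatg
A probe each of the acetate enzyme and the elongase is shown as well, because the first carried the only call of its gene and the other read its gene apart from 2 probes that overlap each other.
Acss2 A_64_P130683: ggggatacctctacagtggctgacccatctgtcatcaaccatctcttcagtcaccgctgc
Elovl6 A_44_P428691: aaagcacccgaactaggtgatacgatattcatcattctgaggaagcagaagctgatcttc
Probe pairs that read the same bases are not independent measurements of a gene. The 2 Fasn probes shared the 28 bases gaaggacctaccctgtctcaataatgtc, the 2 brighter Elovl6 probes shared a run of 50 bases and the 2 Thrsp probes a run of 39. The 2 probes of Acly, Acss2, Acacb, Scd1, Srebf1 and Mlxipl shared at most 8 bases in a row.

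Of the lipogenic enzymes, 4 were lower in livers of the high-fat group. Elovl6 was 8.14-fold, Fasn 7.96-fold, Acly 3.58-fold and Acacb 2.97-fold lower, and these passed the threshold, an adjusted p under 0.05 by limma over all tested probes. By their brightest probes Acss2, Scd1 and Thrsp were lower on average without passing it. Srebf1 was lower by about the SD of its groups and did not pass either, and Mlxipl was level. The other Acss2 probe passed, and Acaca could not be tested. Of the 9 member genes tested, 4 fell and 0 rose, against 0.527% of all 18587 tested genes that fell and 0.35% that rose. By probe, 8 of 18 fell, against 0.53% of all tested probes. The median log2 change of the 9 genes was -1.70, against 0.00 over all tested genes, and 8 of the 9 changes were negative, against 49.4% of all genes. In 6 of the 9 every high-fat sample lay below every control sample, which 6.24% of all tested genes did. In bulk liver, fewer cells of a type and less RNA per cell cannot be told apart.

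Values below are normalized log2 intensities, that is log2 signal relative to the 75th percentile of its own array, given for control replicates 1 to 4 and then high-fat replicates 1 to 4. They compare samples for one probe, and the level of one probe says nothing about that of another. A gene stands for its brightest tested probe. Replicate numbers are used here to name samples, and the labels give no pairing by them.

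**Figure D1:**
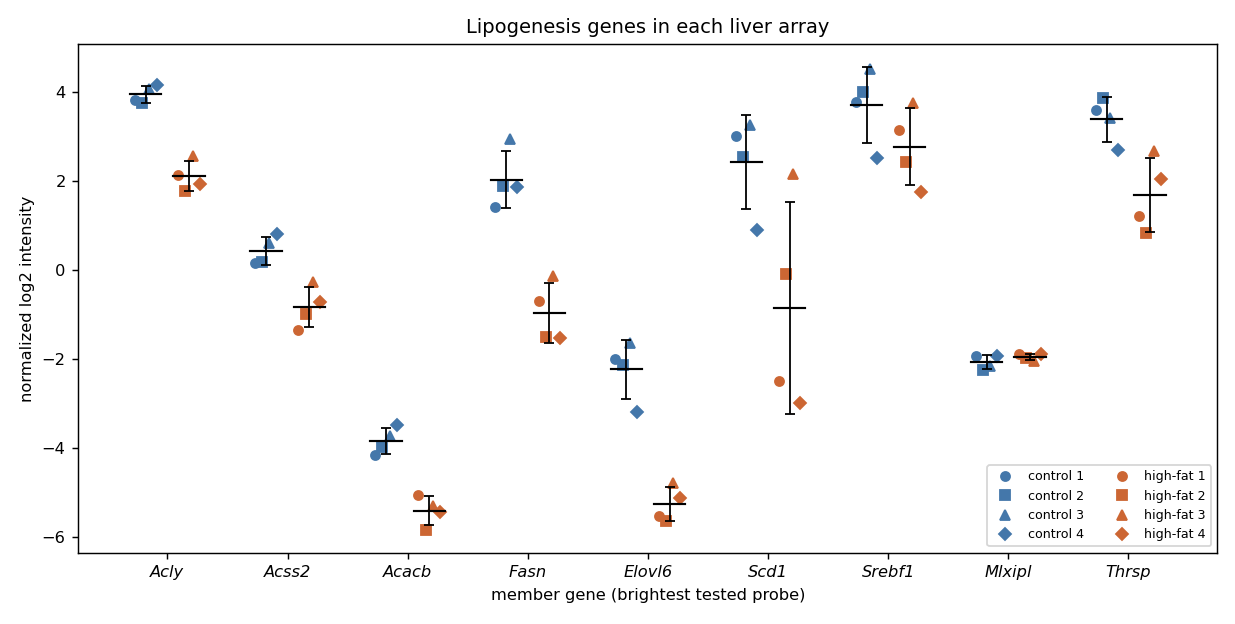
Normalized log2 intensity (vertical axis) of the brightest tested probe of 9 lipogenesis genes (horizontal axis) on each array, with control arrays in blue and high-fat arrays in orange, and the symbol giving the replicate number. Horizontal bars are group means and error bars are SD (n = 4); the groups lie apart for Acly, Acss2, Acacb, Fasn and Elovl6, nearly touch for Thrsp, and overlap for Scd1, Srebf1 and Mlxipl.

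Acly, the entry of citrate carbon, was the most tightly measured of the members that fell. Its probe at chr10:89420943-89421002 (rn4, minus strand) read 3.81, 3.75, 4.07 and 4.15 in control livers and 2.15, 1.78, 2.56 and 1.93 in high-fat livers. The groups did not overlap, and high-fat replicate 3 was the highest of its group. The mean went from 3.94 ± 0.20 to 2.11 ± 0.34 (SD, n = 4 each), which is a log2 change of -1.84 (95% interval -2.28 to -1.40, adjusted p = 0.0153, limma). The other Acly probe gave -1.71 (adjusted p = 0.028, limma), and within the first and the second row of the slide the change was -1.81 and -1.86.

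Acss2, the entry of acetate carbon, was lower by a similar amount in both of its probes, and its call depended on the probe. The brighter probe read 0.16, 0.18, 0.60 and 0.80 in control livers and -1.34, -0.98, -0.27 and -0.72 in high-fat livers, with no overlap. Its log2 change was -1.26, with a 95% interval from -1.84 to -0.69, and missed the threshold (adjusted p = 0.0636, limma). The probe shown above, at chr3:146056348-146056407 (rn4, plus strand), changed by -1.22 and passed it (adjusted p = 0.0397, limma).

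The carboxylases were dim on this array, and one of them could not be tested. Acacb, the form at the mitochondrial surface, read -4.16, -3.97, -3.72 and -3.49 in control livers and -5.05, -5.83, -5.30 and -5.44 in high-fat livers with its probe within chr12:43388775-43389414 (rn4, minus strand). Every high-fat sample was below every control sample, and the log2 change was -1.57 (95% interval -2.05 to -1.09, adjusted p = 0.0235, limma). With the normexp background correction, which shrinks differences between dim spots, the change was -1.03. The other Acacb probe changed by -1.46 and did not pass (adjusted p = 0.0607, limma).

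Acaca, the cytosolic carboxylase that feeds Fasn, was well above background on fewer than 4 arrays by either probe and so was not tested. Its probe at chr10:72499952-72500011 (rn4, plus strand) was well above background on 3 control arrays and 0 high-fat arrays. It read -7.09, -6.54, -7.14 and -7.45 in control livers and -8.31, -9.17, -7.92 and -9.18 in high-fat livers, and the bound on its fall was 2.13-fold. That bound sets the control mean against, on each high-fat array, the dimmest signal counted as well above background or the probe's own signal, whichever was higher. It is not strict, because the control mean includes control replicate 1, where this probe was not well above background. The probe that aligns with Acacb was well above background on 1 array of each group, its groups overlapped, and its log2 difference was 0.23. After normexp the differences of the 2 Acaca probes were -0.40 and -0.07, and the first was smaller than the bound (1.09 on the log2 scale).

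Fasn and Elovl6, which make and lengthen palmitate, had the largest falls among the members that passed. Fasn read 1.42, 1.89, 2.94 and 1.87 in control livers and -0.68, -1.49, -0.14 and -1.53 in high-fat livers. The lowest control sample was above the highest high-fat sample, and replicate 3 was the highest of both groups. The mean went from 2.03 ± 0.64 to -0.96 ± 0.68 (SD, n = 4 each), which is a log2 change of -2.99 (95% interval -3.91 to -2.07, adjusted p = 0.0251, limma). By the overlapping probe Fasn was 7.99-fold lower (adjusted p = 0.0211, limma). The call ended without control replicate 2 (adjusted p = 0.058), control replicate 3 (0.053), control replicate 4 (0.052), high-fat replicate 2 (0.074) or high-fat replicate 4 (0.062), all by limma, while the change stayed between -3.29 and -2.69 under every alternative.

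Elovl6 read -1.99, -2.12, -1.63 and -3.18 in control livers and -5.51, -5.63, -4.78 and -5.11 in high-fat livers. Control replicate 4 was the lowest of its group and still lay above every high-fat sample. The log2 change was -3.03, with a 95% interval from -3.80 to -2.25 (adjusted p = 0.0164, limma), and -2.24 after normexp. The overlapping probe at chr2:227054046-227054105 (rn4, plus strand) gave -3.54 (adjusted p = 0.0182, limma). The probe shown above, within chr2:227047594-227052367, was well above background on 3 control arrays and 0 high-fat arrays. By it the same kind of bound on the fall was 3.69-fold, again with control replicate 1 not well above background. After normexp the difference by that dim probe was -0.67 on the log2 scale, smaller than this bound. Without high-fat replicate 2 the adjusted p of the brightest probe was 0.054 (limma).

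Scd1, the delta-9 desaturase, had a mean change as large as those of Fasn and Elovl6 and by far the widest spread. Its probe at chr1:249458860-249458919 (rn4, minus strand) read 3.01, 2.54, 3.25 and 0.90 in control livers and -2.48, -0.08, 2.17 and -2.99 in high-fat livers. High-fat replicate 3 lay above control replicate 4, so the groups overlapped. The SD was 1.06 in control and 2.38 in high-fat livers, and the mean difference of -3.27 on the log2 scale could lie anywhere between -5.77 and -0.78 (95% interval, adjusted p = 0.21, limma). The other Scd1 probe, which shares at most 8 bases in a row with it, gave -3.21 (adjusted p = 0.214, limma) and ordered the 4 high-fat samples alike, from 2.13 in replicate 3 to -2.94 in replicate 4. Without high-fat replicate 3 the change of the brightest probe was -4.28 (adjusted p = 0.099, limma).

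**Figure D2:**
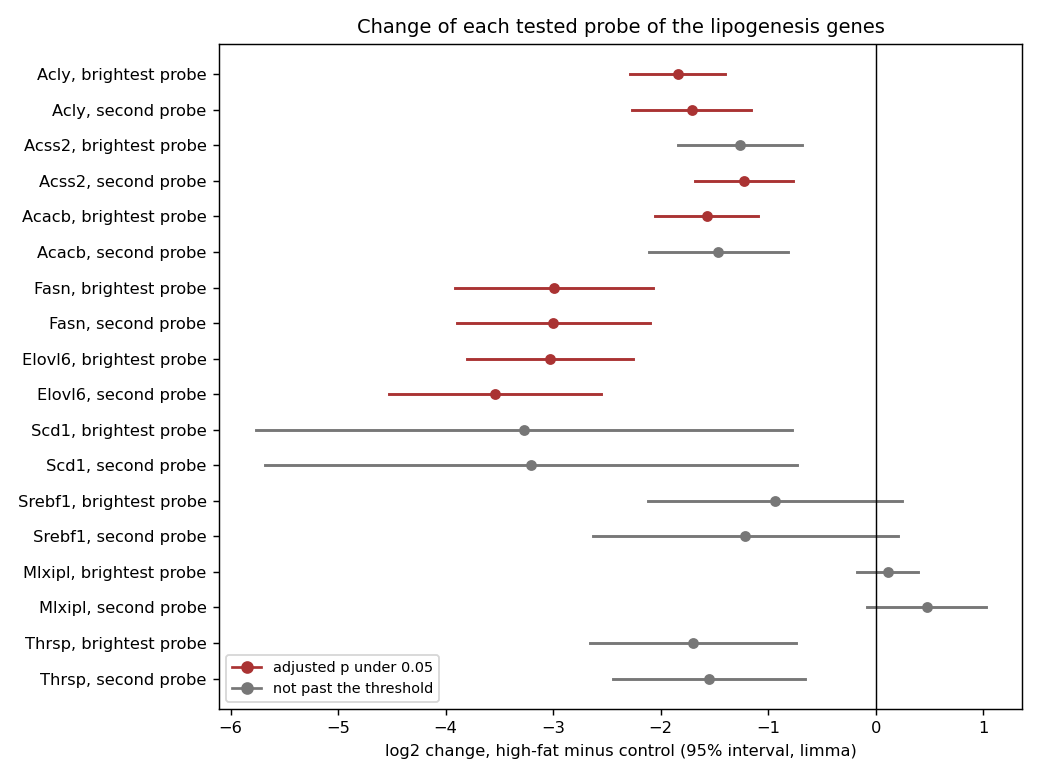
Log2 change (high-fat minus control, horizontal axis) of the 18 tested probes of the lipogenesis genes, with 95% intervals from limma; red marks an adjusted p under 0.05 over all tested probes. Both probes of Acly, Fasn and Elovl6 and 1 probe each of Acss2 and Acacb are red, the Scd1 intervals are the widest, and those of Srebf1 and Mlxipl include 0.

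Among the regulators, Srebf1 mRNA, which encodes both forms of SREBP-1, did not pass the threshold. Its probe at chr10:46462235-46462294 (rn4, minus strand) read 3.78, 4.01, 4.52 and 2.53 in control livers and 3.15, 2.44, 3.76 and 1.75 in high-fat livers. Replicate 3 was highest and replicate 4 lowest in both groups, and the groups overlapped. The log2 change was -0.94 (95% interval -2.12 to 0.25, adjusted p = 0.444, limma), and -1.21 by the other probe (adjusted p = 0.402, limma). The SD of the brightest probe was 0.85 in control and 0.87 in high-fat livers. Neither probe was assigned to the 1a or the 1c form here.

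Mlxipl, which encodes ChREBP, was the least variable member. It read -1.94, -2.24, -2.16 and -1.92 in control livers and -1.89, -1.98, -2.04 and -1.89 in high-fat livers, with overlapping groups. The log2 change was 0.11, with a 95% interval from -0.18 to 0.40 (adjusted p = 0.737, limma), which leaves out a fall of the size seen in Acly or Acacb. The dimmer probe gave 0.48 (adjusted p = 0.398, limma). The alpha and beta forms of ChREBP were not told apart by these probes.

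Thrsp, the thyroid hormone responsive protein also called Spot 14, read 3.60, 3.87, 3.41 and 2.69 in control livers and 1.21, 0.83, 2.68 and 2.05 in high-fat livers. The highest high-fat sample, replicate 3, came within 0.01 of the lowest control sample, replicate 4, and the overlapping probe at chr1:154651216-154651275 (rn4, minus strand) had overlapping groups. The log2 change was -1.70 (95% interval -2.66 to -0.74, adjusted p = 0.11, limma). Its size differed by slide row, at -2.71 in the first row and -0.69 in the second, which hold 2 samples of each group apiece.

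The samples were not ordered alike by every member. High-fat replicate 3 was the highest of its group in 7 of the 9 tested members, all but Acacb and Mlxipl. Control replicate 4 was the lowest of its group for Elovl6, Scd1, Srebf1 and Thrsp and the highest for Acly, Acss2, Acacb and Mlxipl. Each member's deviations from its group means were correlated with the mean standardized deviation of all 9 over the 8 arrays. Acly and Fasn had the highest r, 0.88 and 0.86, and Mlxipl the lowest, -0.33. Members enter the profile themselves, so these are descriptions. Genes outside the pathway were ranked by how closely their deviations followed the profile, with no test. Only genes named by a symbol, not by a provisional or accession name, were kept. The closest were Mppe1 (r = 0.974), Mtmr7 (0.970), Ppp3r1 (0.958) and Icam2 (0.951), the highest of many genes over 8 arrays. None of these 4 passed the diet comparison (adjusted p from 0.344 to 0.588, limma).

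Whether the enzymes fell further than the mRNA of their activator was tested within arrays, as the difference between each gene and Srebf1, over 7 pairs. Only brightest probes were used, and the other Srebf1 probe changed more (-1.21 against -0.94), so the shifts depend on the probe chosen. The 95% intervals are from a linear model of the 2 groups and are not adjusted over the pairs. The Fasn minus Srebf1 difference was -2.36, -2.12, -1.58 and -0.65 in control livers and -3.83, -3.93, -3.89 and -3.28 in high-fat livers, without overlap. Its shift of -2.06 (95% interval from -3.06 to -1.06) had an exact two-sided permutation p = 0.0286, the smallest that 4 against 4 samples allow, and 0.10 after Benjamini-Hochberg adjustment over the 7 pairs. The shift of Elovl6 against Srebf1 was -2.09 (95% interval from -3.14 to -1.04), with the same exact p-values. For Scd1 it was -2.34 (exact permutation p = 0.0571), for Acly -0.90 (0.143), for Thrsp -0.76 (0.257), for Acacb -0.64 (0.343) and for Acss2 -0.33 (0.629). None passed after adjustment. At least 5 of the 7 pairs would have had to reach the smallest p for any to pass, so this design could hardly do so. The intervals were wide, from -4.69 to 0.01 for Scd1 and from -1.99 to 1.34 for Acss2.

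**Figure D3:**
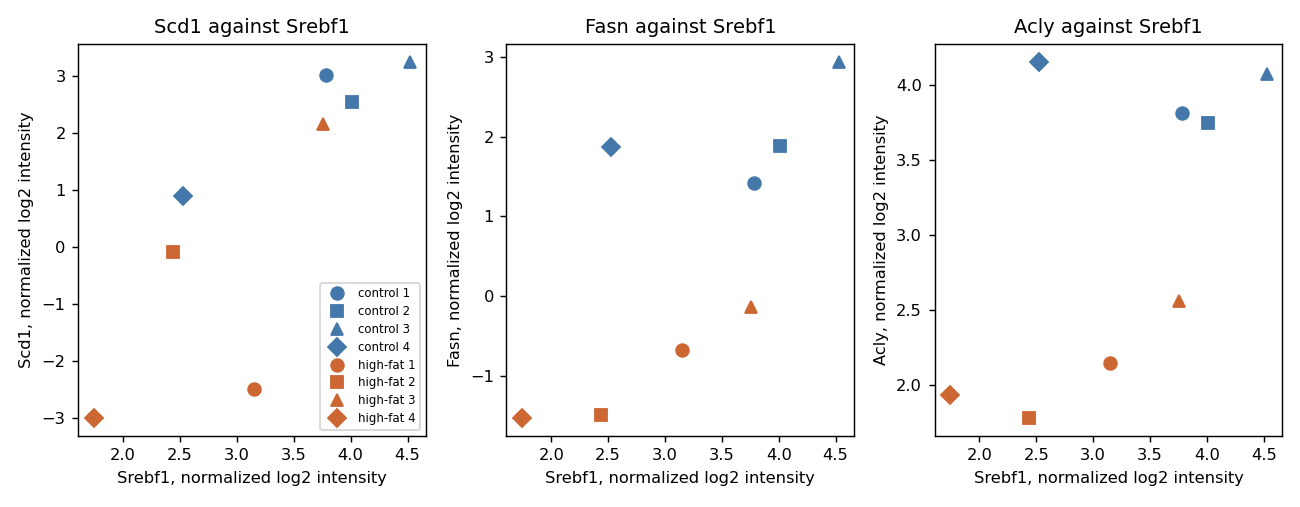
Normalized log2 intensity of Scd1, Fasn and Acly (vertical axes) against that of Srebf1 (horizontal axes), 1 point per array, control in blue and high-fat in orange, with the symbol giving the replicate number. At overlapping Srebf1 levels the high-fat points of Fasn and Acly lie below all control points, whereas for Scd1 high-fat replicate 3 lies above control replicate 4.

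The windows of 250 bases before the start sites were read from RefSeq on build GRCr8, a later build than the rn4 coordinates of the probes. RefSeq gene records matched all 10 members, Scd1 under its present symbol Scd, and the promoter table held 9 start sites of 7 members. Fasn, Elovl6 and Acaca had no entry. Windows are shown where the start lies at the outer end of the gene, for the called gene Acacb, the activator gene Srebf1 and Thrsp, with CCAAT and GC boxes in capitals on either strand.
Acacb, chr12:48138215-48138464 (minus strand): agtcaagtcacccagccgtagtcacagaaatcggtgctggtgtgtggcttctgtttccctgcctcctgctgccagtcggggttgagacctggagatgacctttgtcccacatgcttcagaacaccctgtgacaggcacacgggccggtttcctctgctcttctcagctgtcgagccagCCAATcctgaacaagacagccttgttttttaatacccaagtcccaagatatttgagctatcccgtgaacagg
Srebf1, chr10:45529165-45529414 (minus strand): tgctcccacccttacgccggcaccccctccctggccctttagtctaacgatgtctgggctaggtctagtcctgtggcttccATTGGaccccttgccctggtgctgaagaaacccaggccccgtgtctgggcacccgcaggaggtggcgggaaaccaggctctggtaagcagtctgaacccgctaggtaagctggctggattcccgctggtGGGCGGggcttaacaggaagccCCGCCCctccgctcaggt
Thrsp, chr1:161138965-161139214 (minus strand): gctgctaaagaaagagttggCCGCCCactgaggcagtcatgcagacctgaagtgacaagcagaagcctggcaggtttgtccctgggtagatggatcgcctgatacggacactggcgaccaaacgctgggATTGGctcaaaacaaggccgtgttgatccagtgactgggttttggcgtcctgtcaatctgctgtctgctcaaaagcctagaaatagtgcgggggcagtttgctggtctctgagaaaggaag
CCAAT, searched on either strand, was in the windows of 8 of 9 start sites (6 of the 7 genes), and the share over 33469 rat promoters, counted by start site, was 34.0%. In these windows it overlapped no other motif searched. It began 71, 73 and 72 bases before the start in Acly, Acss2 and Acacb, and at other positions in the rest. It began at 121 bases in Thrsp, at 169, 131 and 108 over the windows of Srebf1, and at 126 and 18 or 130 and 22 in those of Mlxipl. The windows of Mlxipl overlap almost wholly and hold the same boxes, so they are not separate counts. The GC box GGGCGG was in 5 of 9 start sites (4 of the 7 genes), against 30.5% of promoters counted by start site. A sterol regulatory element written TCACNCCAC was in none of the 9 windows (1.0% of promoters), and neither was the E-box CACGTG (5.6%), both searched on either strand. These matches describe letters in short windows and are not evidence of binding.

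The steps around the pathway were read from 7 lists with 86 tested genes, of which 3 fell (3.49%, against the 0.527% of all genes given above) and 0 rose. Their median log2 change was 0.00, and 48.8% of the changes were negative. Aacs, which activates acetoacetate for cytosolic lipid synthesis, read -2.93, -4.59, -1.95 and -3.26 in control livers and -7.12, -6.19, -6.47 and -6.33 in high-fat livers, a log2 change of -3.35 (adjusted p = 0.0324, limma). Cpt1b, the muscle form of the malonyl-CoA-inhibited carnitine palmitoyltransferase, changed by -2.64 (adjusted p = 0.0204, limma). Srebf2, whose product SREBP-2 drives sterol synthesis, changed by -0.82 (adjusted p = 0.0491, limma), from 0.33 ± 0.14 to -0.49 ± 0.21 (SD, n = 4 each).

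**Figure D4:**
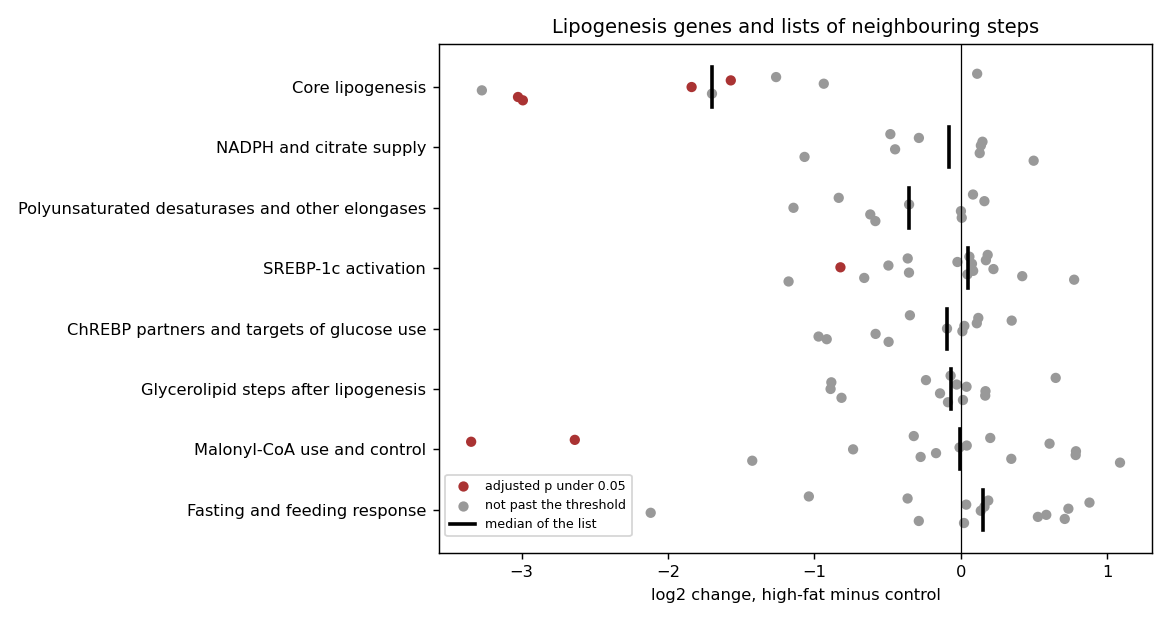
Log2 change (high-fat minus control, horizontal axis) of each tested gene of the core lipogenesis set and of 7 lists of neighbouring steps (rows), with red for an adjusted p under 0.05 by limma and a black bar at each list's median. The core set has its median at -1.70, the other lists have theirs between -0.35 and 0.15, and 3 genes outside the core set are red.

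The enzymes that supply NADPH and citrate to Fasn did not pass in any of 8 tested genes (median -0.08). Me1, malic enzyme, came closest, with a change of -1.07 and no overlap between groups (adjusted p = 0.0819, limma), and Tkt was at -0.48 (0.228). None of 9 other desaturases and elongases passed (median -0.35), and Fads1, the delta-5 desaturase, had the smallest p, with a change of -1.14 (adjusted p = 0.0761, limma), ahead of Elovl2 at -0.62 (0.114) and Elovl1 at -0.58 (0.147).

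Of 16 genes listed around the activation of SREBP-1c, the only one called was Srebf2, the gene of SREBP-2 (list median 0.05). The SREBP escort Scap was at -0.36 (adjusted p = 0.315, limma), Nfya, a subunit of the CCAAT-binding factor, at -0.66 (0.122) and the retention protein Insig2 at 0.77 (0.319). Of 11 ChREBP partners and targets none passed (median -0.09), with Gpd1 at -0.58 (adjusted p = 0.156, limma), the glycolytic enzyme Pklr at -0.97 (0.181) and Txnip at -0.49 (0.323). Of 13 glycerolipid genes none passed (median -0.07), with Acsl3 at -0.88 (adjusted p = 0.109, limma), Acsl4 at 0.65 (0.287) and Gpam, which starts glycerolipid synthesis, at -0.82 (0.353). Among 15 genes of malonyl-CoA use and control, 2 fell, Aacs and Cpt1b (median -0.01), and Acat2 at -1.43 (adjusted p = 0.0552, limma), Acsm3 at 1.09 (0.137) and the AMPK subunit Prkaa2 at 0.79 (0.164) did not pass.

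Feeding state and hour of day also set this pathway, and 14 genes that respond to them were read beside it. None passed (median 0.15). The clock gene Per2 was at 0.74 without overlap (adjusted p = 0.0986, limma), Bhlhe40 at 0.71 (0.401) and Igfbp1, which insulin represses, at -2.12 (95% interval -4.44 to 0.21, adjusted p = 0.37). Igfbp1 ranged from 2.70 to 6.18 in control and from 0.15 to 4.76 in high-fat livers, and high-fat replicate 3, the sample with the highest Scd1 of its group, had the lowest Igfbp1. The part of feeding state or hour in the lipogenic changes was not tested.

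Other facts of the arrays bear on these values. Probes well above background made up 50.4% to 71.9% of each array, with the lowest shares in control replicate 1 and high-fat replicate 1. Hepatocyte markers were high and level, with 0 of 10 called and Alb at -0.09, Ttr at -0.06, Apoa1 at -0.14 and Tf at 0.00 in log2 change. Adipocytes also make fatty acids: Lep was well above background on no array, Adipoq on 1 control and 2 high-fat arrays by 1 of its probes and Retn on at most 2 by either probe, and 0 of 5 tested adipocyte markers were called (median 0.40), with Cidec at 0.67, Cfd at -0.13, Fabp4 at 0.76 and Lpl at 0.08. The summed adipocyte level, as a mean over its tested genes, was -2.02 to -1.39 in control and -1.61 to -1.02 in high-fat livers.

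Erythroid markers had positive changes in 3 of 4 tested genes, none called, with Hbb at 1.05, Hba-a2 at 1.14, Alas2 at 1.43 and Slc4a1 at -0.29. Their mean level was -0.02 to 1.11 in control and 1.29 to 1.50 in high-fat livers. Of 7 macrophage markers, all 7 had negative changes and 0 were called (median -0.26), with Clec4f at -0.60, Cd68 at -0.26, Cd163 at -0.09 and Marco at -2.38, and mean levels of 0.62 to 1.24 in control and -0.28 to 0.76 in high-fat livers. Of 7 stellate markers only Lrat, which stores retinyl esters, was called, as higher in the high-fat group. Its probes were well above background on no control array and, where detected, on 4 high-fat arrays. Lrat thus entered the test only through the group where it was high, and its p-value is not given. Des was at -0.70, Rgs5 at 0.62 and Pdgfrb at -0.01, and 5 of the 7 stellate markers had negative changes (median -0.08). Endothelial markers had 0 of 7 called (median -0.18, with Pecam1 at -0.37, Stab2 at 0.60, Kdr at 0.15 and Lyve1 at 0.96). Cholangiocyte markers had 0 of 5 (median -0.62, with Krt19 at -0.59, Krt7 at -0.51, Epcam at -0.62 and Spp1 at -1.64). Lymphocyte markers had 1 of 6, Cd3g at -1.44 (adjusted p = 0.0417, limma), with Cd3e at 0.02 and Cd79b at 0.31. Of these 6 lymphocyte markers, 4 had negative changes (median -0.24). Their mean level was -4.35 to -4.10 in control and -5.31 to -4.42 in high-fat livers. The part of these cell types in the lipogenic changes was not tested.

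The 4 calls did not rest equally on the 8 samples. By the brightest probe of each gene, Acly kept its call with each sample left out, Elovl6 with 7 of 8 left out in turn, and Fasn and Acacb with 3 of 8. The other Acly probe did not pass without control replicate 2 (adjusted p = 0.068, limma), control replicate 3 (0.088) or control replicate 4 (0.064). Nor did it pass without high-fat replicate 1 (adjusted p = 0.061, limma), high-fat replicate 2 (0.081) or high-fat replicate 4 (0.076). The number of member genes called was 2 without control replicate 2, 2 without control replicate 3, 1 without high-fat replicate 2 and 2 without high-fat replicate 4. The direction of all 4 was negative in every one of these fits.

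**Figure D5:**
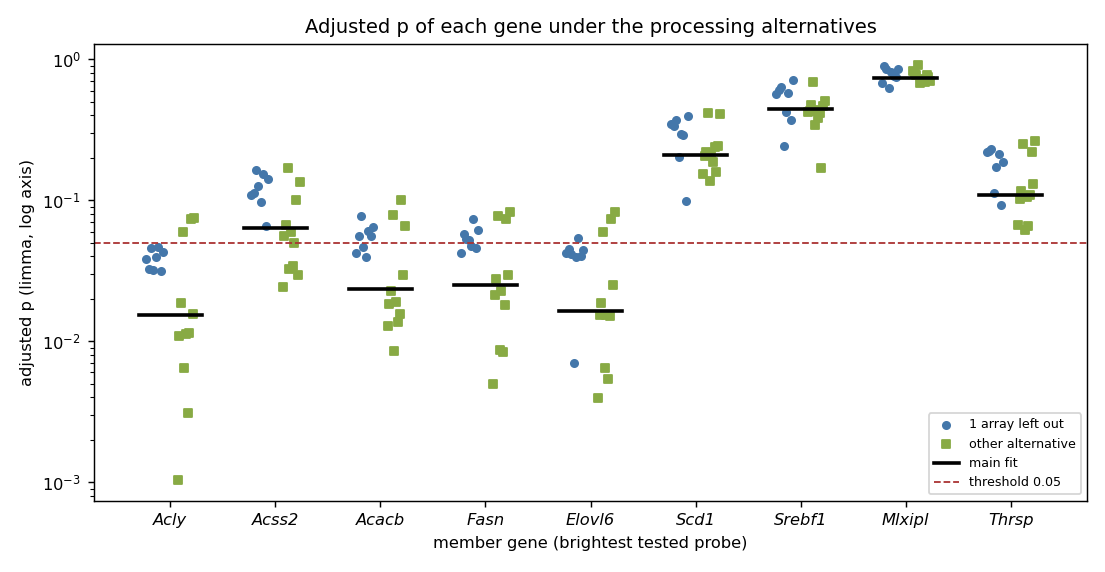
Adjusted p by limma (vertical log axis) of the brightest tested probe of each lipogenesis gene (horizontal axis), with a black bar for the values reported, blue points for fits with 1 array left out, green squares for the other alternatives and a dashed line at 0.05. Acly stays under the line in all fits with 1 array left out, Fasn and Acacb straddle it, and Scd1, Srebf1, Mlxipl and Thrsp stay above it throughout.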

How the data were processed

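Per the labels' protocols, TRIzol-isolated total RNA was labelled with Cy3 from an oligo-dT primer. Per the file headers, spot intensity values were background-subtracted and detrended by Agilent Feature Extraction 10.7.3.1, and probe coordinates are on rn4. The authors' deposited table of log2 values, whose scaling is not given in the sources used here, was an alternative. It tracked the scanner values scaled over all probes (correlation at least 0.999). A correlation within an array does not change with the scaling of that array, so this does not show which scaling was used. Column medians ran from -3.21 to -3.10, on a log2 scale with no centring and brighter spots higher.

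Here log2 intensity minus each array's 75th percentile was used. The percentile was taken over probes well above background on all 8 arrays, since only 47.9% were. Control and outlier spots were left out and spots of a probe averaged. Probes that passed that background test on 4 or more of 8 arrays, 31535 in all, were fitted with limma 3.58.1 (R 4.3.3) and adjusted by Benjamini-Hochberg. The number of arrays limits the precision. The code was tested on simulated data. Pairs of genes had exact permutation tests. Named were all members, each neighbour list's called genes and up to 3 more by p, and the first 4 tested markers of each list. Also named were the 4 most similar genes among those with a gene symbol. Some genes that this rule names are not reported here. Alternatives covered background correction, scaling, the filter, the variance model, blocks and left-out arrays. Members and lists were chosen with earlier results of these data known.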

Additional observations from a re-analysis of the deposited data

Results flagged for a closer look

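In 72 sets of 4 samples (each member probe in each group, and further levels), 2 had a sample far from the other 3, where chance gives about 1 in 20. The dimmer Acly probe read -0.70 in high-fat replicate 3, against -1.65 to -1.53 in the other high-fat samples. The dimmest Elovl6 probe read -8.30 in high-fat replicate 1, against -9.64 to -9.44, with all 4 values not well above background.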

How the results depend on the processing

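The main counts were 4 member genes, 8 member probes and 3 neighbour genes past the threshold. All 3 counts were 0 with no filter on dim probes, with the replicate block and without the 2 arrays with the fewest probes above background (control 1 and high-fat 1, an alternative chosen after seeing the data). Over all genes, those fits called 5, 1 and 14 by limma, against 163. With 1 sample left out the counts ranged from 1 to 4 genes, from 1 to 7 probes and from 0 to 1 neighbour genes. Member genes numbered 5, with Acss2 gained, in each of 5 alternatives (normexp, the filter at all 8 arrays, trended robust variance, array weights and the slide row block). Neighbour genes numbered 5 with normexp, 5 with the filter at all 8 arrays and 6 with a trended, robust variance. In the paired fit the 4 called genes had adjusted p from 0.073 to 0.10. The labels give no pairing by replicate number. Same-numbered deviations correlated at -0.12, 0.26, 0.23 and 0.01, and 2 of 8 samples correlated best with their own number. So few samples cannot decide whether same-numbered samples belong together. Acss2 minus Srebf1 ranged from -0.70 to 0.19 with 1 sample left out, and reversed (0.19) without control replicate 4. Every other tested member value kept its sign. The pair tests could hardly pass in this design, and not at all under the replicate block, so they say nothing of stability. Dim signal limits Acaca, Acacb and Elovl6, whose differences shrank with normexp.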
